A study of Mus musculus with 4 samples.

Results

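The 48 genes described here encode the machinery of mitosis: the kinases and cyclins that start it, the kinetochore, the spindle checkpoint, the motors and bundling proteins of the spindle, and the proteins that split the cell. They were taken from a fixed list of symbols, 48 of 21937 gene symbols in the count table, and none was absent from it. The counts come from RNA sequencing of splenic CD4+ T cells of B6 mice, 6 weeks old, activated with phorbol 12-myristate 13-acetate (PMA) and ionomycin, drugs that switch on protein kinase C and calcium signalling without a receptor. The genes deleted, Itch and Wwp2, encode related E3 ubiquitin ligases, and the series asks what such ligases do in T cell activation. The first of its 4 libraries is labelled DKO (Itch and WWP2). The second is from Itchf/f Cd4cre cells, in which a floxed Itch allele is deleted by a Cre driven from Cd4 regulatory sequence, that is, in the T cell lineage (Itch KO below). The third is from WWP2-/- mice (WWP2 KO) and the fourth from wild type. All were stimulated alike as labelled. The labels leave out which Itch allele the library labelled DKO carries, whether wild type carried Cre, the hours of stimulation and the mice per library.

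Each genotype has 1 library, so no difference below has a replicate check, no p-value is given, and intervals are 95% counting intervals that cover counting error only. Total counts ran from 17130747 to 17990392. The deleted genes were read first. Wwp2 had 1135 reads in the library labelled DKO, 1332 in Itch KO and 4 in WWP2 KO, against 1363 in wild type. The first of these counts goes against its label, and that library is therefore named here by its label alone. Itch had 2389, 1914, 1996 and 2083 reads in the same order. A count over the whole gene takes in exons outside a deleted part, so it checks neither Itch label. In bulk RNA, fewer cells of a type and less RNA per cell cannot be told apart.

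Mitotic genes are transcribed in a wave late in the cell cycle. In most dividing cells they are held off in quiescence and early G1 by the DREAM complex and are switched on in G2 by B-Myb and FOXM1 on the MuvB core, which sits on a short promoter element, the cell cycle genes homology region (CHR), next to CCAAT boxes bound by NF-Y. Resting T cells lie outside the cell cycle and enter it some time after activation, so the level of these transcripts in a T cell culture is a common measure of how much of it is cycling.

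Most of the mitotic genes were far higher in the library labelled DKO and, by a smaller step, in Itch KO, while in WWP2 KO few were called. A gene was called when 3 conditions held. Its log2 ratio, computed after adding a prior count of 2, was 1 or more in size, the level averaged 2 CPM or more (CPM being counts scaled to the library total), and the counting interval left out 1. In the library labelled DKO against wild type, 44 of the 48 were called higher and 0 lower, where 12.3% of the 9926 genes tested were called higher and 6.34% lower. The other members were Bub3 and Pttg1, which were not called, and Cdc25c and Cenph, at means of 1.29 and 1.76 CPM, just under the minimum. Just above it stood Ttk at 2.94 and Spc24 at 3.07 CPM. In Itch KO against wild type 38 were called higher and 0 lower, where the shares over all genes tested were 4.89% and 0.846%. In WWP2 KO against wild type 1 was called higher and 1 lower, with shares of 0.282% and 0.161%.

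The median log2 ratio of the members tested was 3.24 in the library labelled DKO against wild type, with quartiles of 2.52 and 3.68, beside a median of -0.03 over all genes tested. It was 1.74 in Itch KO against wild type, with quartiles of 1.28 and 2.19, beside -0.02 over all genes. In WWP2 KO against wild type it was -0.04, beside -0.01 over all genes. A minimum on the mean favours genes that are high somewhere, so the members were also counted with no minimum. All 48 then gave 46 called higher in the library labelled DKO, 40 in Itch KO and 1 in WWP2 KO, where 12.4%, 4.66% and 0.757% of the 15454 genes with a read were called higher. In WWP2 KO 1 was also called lower, beside 0.362% of those genes. Of the 32 members with a mean of at least 2 CPM over WWP2 KO and wild type alone, 30 were called higher in the library labelled DKO and 24 in Itch KO, where 9.63% and 2.93% of the 9669 genes chosen in the same way were.

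The 2 libraries labelled as Itch-deficient lay apart from the others for nearly every member. In 44 of 46 members tested, both the library labelled DKO and Itch KO were above both WWP2 KO and wild type, a pattern found for 24.1% of all genes tested. In the same number of members the library labelled DKO was also above Itch KO, a pattern found for 20.4%. Bub3 and Pttg1 were the exceptions to both. Summed over the 48 members, the level was 1734 CPM in the library labelled DKO, 746 in Itch KO and 303 in WWP2 KO, against 324 in wild type.

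**Figure D1:**
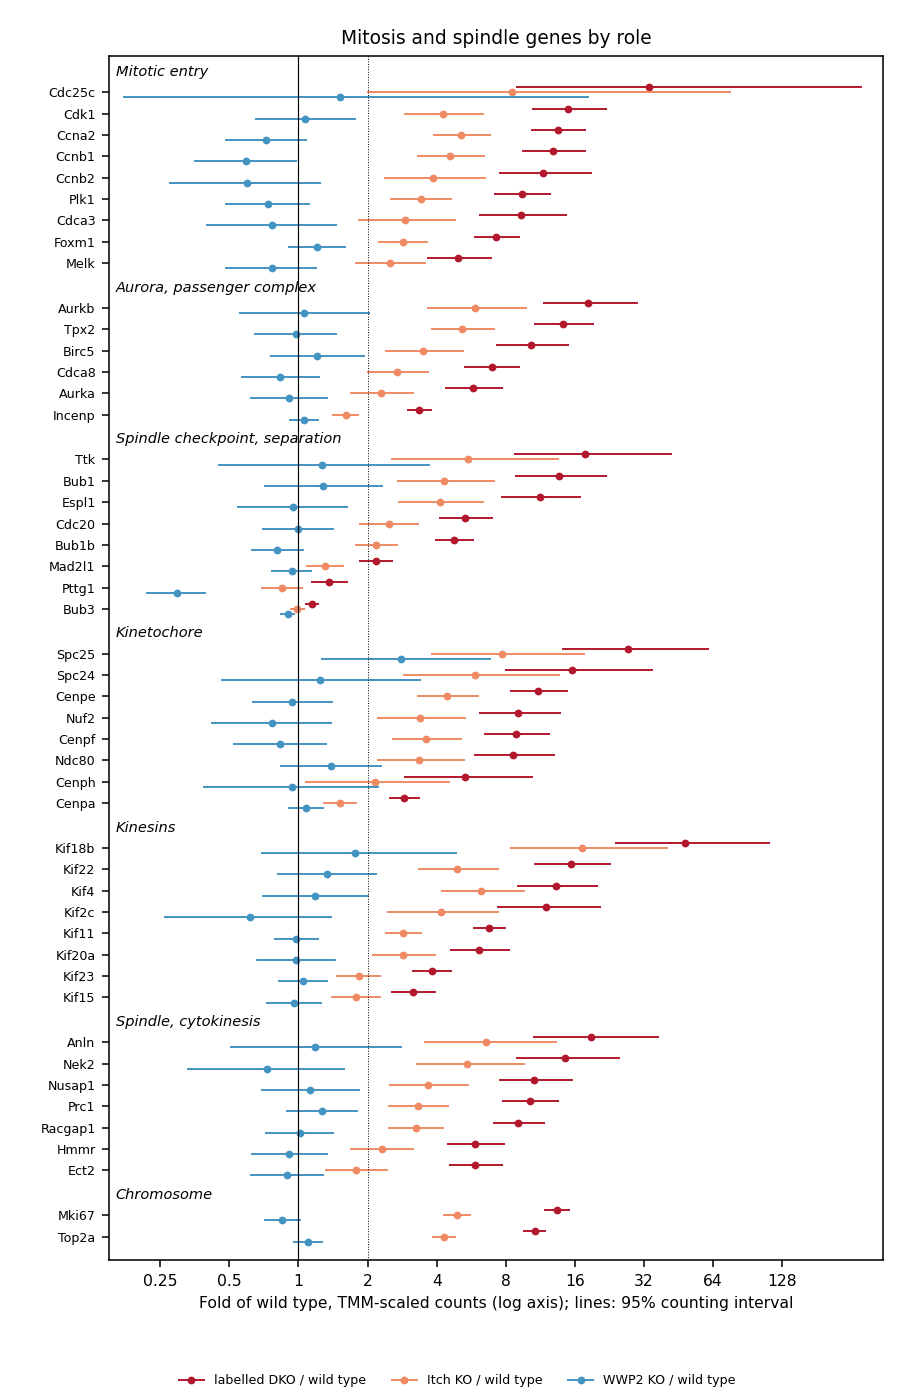
Fold of wild type for each of the 48 members, on a log axis, grouped by role and ordered within a role by the fold in the library labelled DKO; points are folds of TMM-scaled counts, lines 95% counting intervals, the solid line marks 1 and the dotted line 2. The red points (library labelled DKO) lie right of the orange (Itch KO) throughout, and the blue (WWP2 KO) run from Pttg1 at 0.295 to Spc25 at 2.81, with most near 1.

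The promoters of these genes are shown because the members moved together and the CHR is the element they are known for. RefSeq promoter windows (build GRCm38.p6, 250 bases before to 50 after the gene start) were found for 40 of the 48 members, the others being Ccna2, Tpx2, Cdc25c, Foxm1, Spc24, Incenp, Kif20a and Aurkb. They were searched on both strands for TTTGAA, the usual CHR, TTCGAA, a variant that reads the same on both strands, CCAAT, and the E2F-type sequences TTCCCGC and TTTGGCGC. None of these contains another, and a gene counts when any of its windows holds a match (3 members have 2 windows). TTTGAA was found in 29 of 40 members (72.5%), against 20.2% of all 27025 genes with a window and 14.1% of the 7987 of them that were tested here. TTCGAA was found in 3 members (7.5%, against 1.80% of all genes), and CCAAT in 30 (75%, against 41.1%). A CHR of either spelling together with CCAAT was found in 26 members (65.0%, against 8.61% of all genes and 6.84% of those tested). The E2F-type sequences were each found in 1 member (2.5%), against 5.29% and 0.585% of all genes. These matches are descriptions of letters in a window, not binding sites.

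The positions of the elements were also read. Of the 30 members with a CHR of either spelling, 27 had one within 60 bases before to 40 after the start. In all 26 members with both elements a CCAAT box lay upstream of the CHR nearest the start, at a median of 35.0 bases from centre to centre (quartiles 27.0 and 44.2). Below are windows round that CHR, from the kinesin gene Kif18b at chr11:102925097-102925166 (minus strand), the cyclin gene Ccnb2 at chr9:70421526-70421595 (minus strand), the checkpoint kinase genes Ttk at chr9:83834651-83834720 (plus strand) and Bub1 at chr2:127831821-127831890 (minus strand), and the centromere histone gene Cenpa at chr5:30666857-30666926 (plus strand). Capitals mark the CHR, in either spelling and on either strand, and CCAAT or its reverse complement. The nearest upstream boxes of Bub1 and Cenpa, at 56.5 and 102.5 bases, lie outside the windows printed.
Kif18b: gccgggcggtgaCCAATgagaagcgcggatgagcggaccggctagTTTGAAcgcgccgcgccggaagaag
Ccnb2: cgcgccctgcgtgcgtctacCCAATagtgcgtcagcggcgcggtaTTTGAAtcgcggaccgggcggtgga
Ttk: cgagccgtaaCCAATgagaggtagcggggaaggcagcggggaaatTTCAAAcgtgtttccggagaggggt
Bub1: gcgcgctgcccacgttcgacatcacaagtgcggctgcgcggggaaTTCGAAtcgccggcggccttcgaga
Cenpa: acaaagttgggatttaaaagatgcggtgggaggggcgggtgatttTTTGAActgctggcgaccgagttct

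The full windows of 3 members stand for the range of responses, with the same capitals. Cdk1, at chr10:69352863-69353162 (minus strand), was among the members with the highest ratios. Bub3, at chr7:131560120-131560419 (plus strand), and Pttg1, at chr11:43425932-43426231 (minus strand), were the 2 that were not called in the library labelled DKO against wild type. The Bub3 window holds a CHR of a spelling searched and CCAAT boxes, whereas the Pttg1 window holds neither.
Cdk1: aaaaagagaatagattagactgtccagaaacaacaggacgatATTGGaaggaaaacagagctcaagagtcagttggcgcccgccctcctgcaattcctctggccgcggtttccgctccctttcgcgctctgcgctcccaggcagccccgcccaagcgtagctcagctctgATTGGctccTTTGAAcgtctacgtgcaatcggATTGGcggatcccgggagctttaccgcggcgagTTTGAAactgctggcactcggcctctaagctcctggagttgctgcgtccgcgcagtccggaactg
Bub3: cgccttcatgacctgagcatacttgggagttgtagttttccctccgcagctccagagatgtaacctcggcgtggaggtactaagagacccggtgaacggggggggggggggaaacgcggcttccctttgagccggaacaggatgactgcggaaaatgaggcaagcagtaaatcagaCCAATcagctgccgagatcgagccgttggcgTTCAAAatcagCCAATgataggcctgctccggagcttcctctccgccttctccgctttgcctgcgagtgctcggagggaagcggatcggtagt
Pttg1: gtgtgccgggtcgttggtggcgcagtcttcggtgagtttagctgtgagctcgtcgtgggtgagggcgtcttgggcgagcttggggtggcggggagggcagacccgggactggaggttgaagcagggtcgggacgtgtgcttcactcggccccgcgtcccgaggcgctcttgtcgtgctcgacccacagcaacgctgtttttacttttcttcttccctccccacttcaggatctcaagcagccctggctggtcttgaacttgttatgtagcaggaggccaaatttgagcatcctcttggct

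Members with and without a match to either CHR spelling searched were set side by side. Other spellings were not searched, so a member without a match may still hold a CHR of another form. The 30 tested members with a match had a median log2 ratio of 3.17 in the library labelled DKO against wild type, from Bub3 at 0.20 to Kif18b at 5.28. The 9 tested members without a match (Ccnb1, Melk, Birc5, Mad2l1, Pttg1, Cenpe, Nuf2, Nusap1 and Nek2) had a median of 3.3, from Pttg1 at 0.44 to Nek2 at 3.72. In Itch KO against wild type the medians were 1.72 with a match and 1.75 without. The members were picked as mitotic genes and the 2 groups were not tested against each other.

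**Figure D2:**
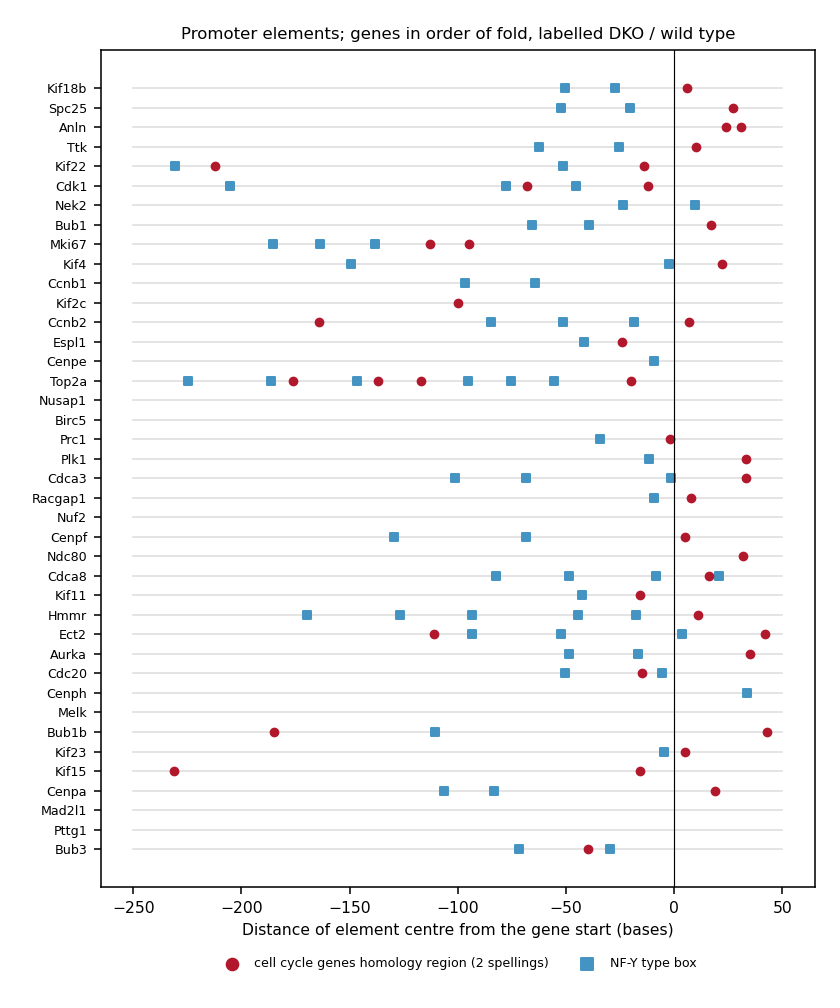
Distance in bases of the centre of each CHR match (red circles) and each NF-Y type box (blue squares) from the gene start in the 40 members with a RefSeq window, ordered from the highest fold in the library labelled DKO against wild type (Kif18b, top) to the lowest (Bub3, bottom). Most red circles sit near the start with blue squares upstream of them. Of the 10 members at the top 9 have a CHR match, and of the 10 at the bottom 6 do, beside 30 of all 40. Pttg1, Mad2l1 and Melk, near the bottom, show neither match. Birc5, Nusap1 and Nuf2, at 10.3-fold, 10.6-fold and 9.04-fold, show neither too.

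Mitotic entry is driven by CDK1 with its cyclins, and all 8 tested genes of this role were called higher in the library labelled DKO and in Itch KO against wild type. In WWP2 KO 6 of the 8 were below wild type, at a median log2 ratio of -0.40 with 0 called. Of all 46 members tested, 26 were below wild type there, at a median of -0.04. The interval of Ccnb1, at 0.594-fold (0.355 to 0.975) in WWP2 KO, left out 1. Cdk1, the master kinase, had 544 reads in the library labelled DKO, 145 in Itch KO and 36 in WWP2 KO, against 34 in wild type. Its level was thus 14.9-fold wild type in the library labelled DKO (10.6 to 21.8) and 4.26-fold in Itch KO (2.92 to 6.39), and WWP2 KO and wild type could not be told apart by counting error. Ccna2, which encodes the cyclin of S phase and G2, had 907 reads in the library labelled DKO, 322 in Itch KO and 45 in WWP2 KO, against 63 in wild type, or 13.4-fold (10.4 to 17.6) and 5.11-fold (3.89 to 6.8) wild type in the first pair. The mitotic cyclin genes Ccnb1 and Ccnb2 followed closely, at 12.8-fold and 11.6-fold in the library labelled DKO.

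Melk, a kinase gene read in G2, had the smallest ratio of this role. It had 261 reads in the library labelled DKO, 123 in Itch KO and 37 in WWP2 KO, against 49 in wild type. This was 4.97-fold wild type in the library labelled DKO (3.65 to 6.89) and 2.51-fold in Itch KO (1.79 to 3.57). Foxm1, the transcription factor gene of this programme, was 7.28-fold (5.89 to 9.09) and 2.84-fold (2.25 to 3.62) wild type in those libraries, and Plk1, the polo kinase gene, 9.39-fold (7.18 to 12.5) and 3.41-fold (2.54 to 4.63). Cdca3, which helps remove the CDK1 inhibitor WEE1, stood at 9.33-fold (6.17 to 14.7) and 2.92-fold (1.83 to 4.8). Cdc25c, the phosphatase gene that opposes WEE1, had 72 reads in the library labelled DKO, 17 in Itch KO and 3 in WWP2 KO, against 2 in wild type, too few for the minimum.

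Aurora A with its activator TPX2 builds the spindle, and Aurora B with survivin (Birc5), borealin (Cdca8) and INCENP forms the chromosomal passenger complex, which corrects faulty attachments. All 6 genes were called higher in the library labelled DKO against wild type and 5 in Itch KO. Aurkb had 409 reads in the library labelled DKO, 123 in Itch KO and 22 in WWP2 KO, against 21 in wild type. It was 18.2-fold wild type in the library labelled DKO (11.7 to 29.7) and 5.85-fold in Itch KO (3.67 to 9.80). Tpx2 had 788 reads in the library labelled DKO, 268 in Itch KO and 50 in WWP2 KO, against 52 in wild type, or 14.1-fold (10.7 to 19.1) and 5.15-fold (3.82 to 7.07) wild type. Aurka itself had smaller folds of 5.77 (4.39 to 7.69) and 2.29 (1.69 to 3.15).

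The passenger complex subunits did not change by one factor. Incenp, its scaffold, had 1464 reads in the library labelled DKO, 653 in Itch KO and 424 in WWP2 KO, against 406 in wild type, which made 3.36-fold (3.01 to 3.76) and 1.61-fold (1.42 to 1.82) wild type, the second not called. Birc5 was 10.3-fold and Cdca8 6.93-fold wild type in the library labelled DKO. The interval of Incenp there lies wholly below those of Aurkb, Birc5 and Cdca8.

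The spindle checkpoint holds the cell until every chromosome is attached, and CDC20, securin (Pttg1) and separase (Espl1) then part the sister chromatids. In this role 6 of the 8 genes were called higher in the library labelled DKO against wild type and 5 in Itch KO. Ttk, the checkpoint kinase gene also known as Mps1, had 152 reads in the library labelled DKO, 44 in Itch KO and 10 in WWP2 KO, against 8 in wild type, or 17.7-fold (8.77 to 41.8) and 5.50-fold (2.56 to 13.5) wild type. Bub1, another checkpoint kinase gene, had 335 reads in the library labelled DKO, 99 in Itch KO and 29 in WWP2 KO, against 23 in wild type, or 13.6-fold (8.90 to 21.7) and 4.3-fold (2.71 to 7.10) wild type. Both genes had low counts in WWP2 KO and wild type, which makes their intervals wide.

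Bub3, the partner that carries BUB1 and BUBR1 to the kinetochore, was nearly level. It had 2251 reads in the library labelled DKO, 1811 in Itch KO and 1624 in WWP2 KO, against 1830 in wild type, or 1.15-fold (1.08 to 1.22), 0.989-fold (0.927 to 1.06) and 0.897-fold (0.839 to 0.960) wild type. Mad2l1, which encodes the checkpoint effector MAD2, was 2.17-fold wild type in the library labelled DKO (1.85 to 2.55) and 1.31-fold in Itch KO (1.09 to 1.56), the second not called. Bub1b, for BUBR1, stood at 4.76-fold and 2.18-fold, Cdc20 at 5.32-fold and 2.47-fold, and Espl1 at 11.2-fold and 4.13-fold wild type.

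Pttg1 and Bub3 were the members in which Itch KO did not lie above wild type, and Pttg1 spread far more widely. Pttg1 had 315 reads in the library labelled DKO, 183 in Itch KO and 63 in WWP2 KO, against 216 in wild type. WWP2 KO was thus the low library, 3.39-fold lower than wild type (2.55 to 4.56), and Pttg1 was the 1 member called lower there. Against wild type, Pttg1 was at 1.36-fold (1.14 to 1.63) in the library labelled DKO and 0.847-fold (0.692 to 1.04) in Itch KO, neither called. Against WWP2 KO it was 4.61-fold higher in the library labelled DKO (3.51 to 6.15). The 10 nearest tested genes on its chromosome, 5 on each side, had log2 ratios from -0.33 to 0.16 in WWP2 KO against wild type, with 0 called.

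The kinetochore is the plate on the centromere that holds microtubules, with CENP-A chromatin at its base and the NDC80 complex (Ndc80, Nuf2, Spc24 and Spc25) at its outer face. All 7 tested genes were called higher in the library labelled DKO against wild type and 6 in Itch KO. Spc25 had 264 reads in the library labelled DKO, 69 in Itch KO and 25 in WWP2 KO, against 9 in wild type. That was 27.4-fold wild type in the library labelled DKO (14.2 to 60.5) and 7.66-fold in Itch KO (3.81 to 17.5). WWP2 KO was 2.81-fold wild type (1.27 to 6.84), the 1 member called higher there, on few reads. Spc24 had 150 reads in the library labelled DKO, 53 in Itch KO and 11 in WWP2 KO, against 9 in wild type, or 15.5-fold (7.97 to 34.7) and 5.89-fold (2.88 to 13.6) wild type.

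The other NDC80 subunit genes were close to each other, Ndc80 at 8.61-fold (5.90 to 13.0) and Nuf2 at 9.04-fold (6.16 to 13.7) wild type in the library labelled DKO. The call of Spc25 in WWP2 KO was lost when the library labelled DKO was left out of the scaling and the minimum, because its mean then fell under 2 CPM. Its 10 nearest tested neighbours ran from -0.20 to 0.36 on the log2 scale in WWP2 KO against wild type, with 0 called. Cenpa, the centromere histone, moved least of this role, with 787 reads in the library labelled DKO, 384 in Itch KO and 271 in WWP2 KO, against 254 in wild type. Its folds were 2.89 (2.51 to 3.34) in the library labelled DKO and 1.51 (1.29 to 1.78) in Itch KO, the second not called. The kinesin-like Cenpe stood at 11.0-fold and Cenpf at 8.83-fold wild type in the library labelled DKO, and Cenph had 74, 28, 12 and 13 reads in the order used above.

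Kinesins push, pull and shorten spindle microtubules, and all 8 were called higher in the library labelled DKO against wild type and 6 in Itch KO. Kif18b, which controls the length of astral microtubules, had 412 reads in the library labelled DKO, 137 in Itch KO and 14 in WWP2 KO, against 8 in wild type. It had the highest ratio of the members tested, 48-fold wild type in the library labelled DKO (24.2 to 112) and 17.1-fold in Itch KO (8.45 to 40.4). Kif22, a motor on chromosome arms, had 526 reads in the library labelled DKO, 157 in Itch KO and 42 in WWP2 KO, against 32 in wild type, or 15.3-fold (10.7 to 22.7) and 4.90-fold (3.34 to 7.42) wild type. Both had their lowest count in wild type, and the counts of WWP2 KO and wild type differed by less than counting error.

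Kif15, which helps keep the spindle poles apart, was the kinesin gene with the smallest ratio, with 378 reads in the library labelled DKO, 199 in Itch KO and 106 in WWP2 KO, against 112 in wild type. Its folds of wild type were 3.15 (2.54 to 3.92) in the library labelled DKO and 1.78 (1.4 to 2.26) in Itch KO. Kif23, the motor of the cytokinetic midzone, was similar at 3.80-fold (3.14 to 4.62) and 1.83-fold (1.48 to 2.27). Neither was called in Itch KO. Kif11, the motor that first separates the poles, stood at 6.78-fold and 2.86-fold wild type in these libraries, and the cytokinesis motor Kif20a at 6.14-fold and 2.86-fold. The microtubule depolymerase Kif2c was at 12.0-fold and 4.17-fold, and the chromosome-bound Kif4 at 13.2-fold and 6.24-fold wild type.

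Genes of spindle bundling and cytokinesis gave 7 of 7 called higher in the library labelled DKO against wild type and 6 in Itch KO. Anln, the scaffold of the contractile ring, had 242 reads in the library labelled DKO, 79 in Itch KO and 14 in WWP2 KO, against 12 in wild type, or 18.8-fold (10.6 to 36.9) and 6.58-fold (3.56 to 13.3) wild type. Nek2, a kinase that frees the centrosomes from each other, had 279 reads in the library labelled DKO, 98 in Itch KO and 13 in WWP2 KO, against 18 in wild type, or 14.5-fold (8.98 to 24.8) and 5.44-fold (3.27 to 9.56) wild type. Ect2, which switches on RhoA at the cell's equator, had 435 reads in the library labelled DKO, 123 in Itch KO and 61 in WWP2 KO, against 69 in wild type. It was the 1 gene of this role not called in Itch KO, at 1.78-fold wild type (1.32 to 2.43), and it stood at 5.88-fold (4.55 to 7.70) in the library labelled DKO.

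ECT2 works with the centralspindlin subunits MgcRacGAP and KIF23, and Racgap1 stood at 9.06-fold and 3.24-fold wild type in the library labelled DKO and Itch KO. Prc1, the microtubule bundler of the midzone, was at 10.2-fold and 3.32-fold, the microtubule binder Nusap1 at 10.6-fold and 3.66-fold, and the spindle assembly factor Hmmr at 5.90-fold and 2.31-fold wild type. Top2a, which untangles sister DNA, had the most reads after scaling of any member in the library labelled DKO, with 4613 there, 1737 in Itch KO and 438 in WWP2 KO, against 403 in wild type. This was 10.7-fold wild type in the library labelled DKO (9.64 to 11.9) and 4.31-fold in Itch KO (3.86 to 4.81). Mki67, for the proliferation antigen Ki-67, had 4123 reads in the library labelled DKO, 1413 in Itch KO and 243 in WWP2 KO, against 289 in wild type, or 13.3-fold (11.8 to 15.0) and 4.89-fold (4.3 to 5.57) wild type. Their many reads made these the narrowest intervals among the members with large folds.

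**Figure D3:**
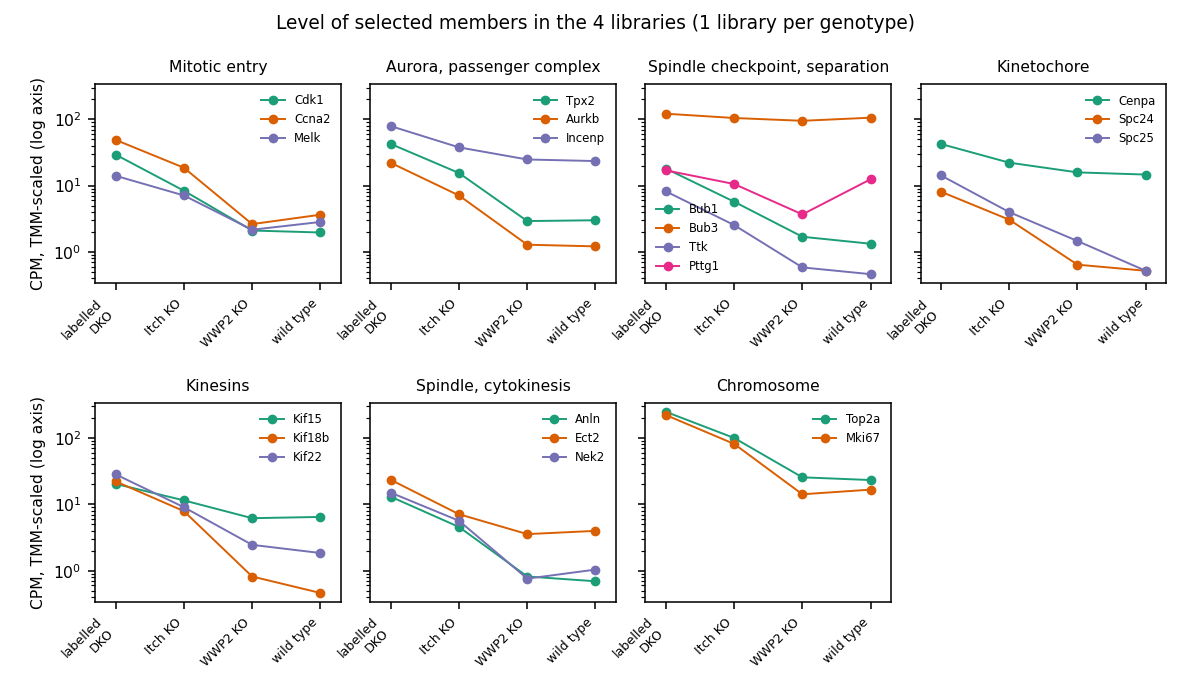
Level in CPM (TMM-scaled, log axis) of the 21 members chosen by rule, 1 panel per role, in the library labelled DKO, Itch KO, WWP2 KO and wild type; each point is 1 library and lines join a gene's points. Most genes step down from the library labelled DKO to Itch KO and again to WWP2 KO, which lies near wild type, Bub3 is nearly flat at 94.7 to 121 CPM, and Pttg1 dips in WWP2 KO to 3.67 CPM.

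The library labelled DKO was set directly against Itch KO, the pair that should differ by WWP2 if the labels hold. In it 40 members were called higher and 0 lower, where 9.18% and 5.16% of all genes tested were called. The median log2 ratio was 1.39, beside 0.03 over all genes, and its quartiles were 1.15 and 1.52. The members lay closer together here than against wild type, from Bub3 at 0.21 to Spc25 at 1.81. Melk, Bub3, Mad2l1, Pttg1, Cenpa and Kif15 were the 6 tested members not called. Top2a was 2.48-fold (2.34 to 2.62) and Mki67 2.72-fold (2.56 to 2.89) the Itch KO level. Since 1135 reads of Wwp2 were in the library labelled DKO, this difference is one between libraries.

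Against WWP2 KO, 45 members were called higher in the library labelled DKO and 0 lower, where 11.6% and 6.05% of all genes tested were. In Itch KO against WWP2 KO, the 2 single knockouts, 39 were called higher and 0 lower, where 4.62% and 1.15% were. Itch KO against wild type and the library labelled DKO against WWP2 KO share no library and differ in the Itch label within each pair. Over the 46 members tested the log2 ratios of these pairs had Pearson's r of 0.863 and Spearman's rho of 0.841, beside 0.699 and 0.451 over all 9926 genes. The points are genes of the same 4 libraries, not independent replicates, and genes with few reads have less certain ratios in both. The ratio was larger in the library labelled DKO against WWP2 KO for all 46, by a median of 1.37 on the log2 scale. Over all genes tested it was larger for 5234 of 9926, with a median difference of 0.04.

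**Figure D4:**
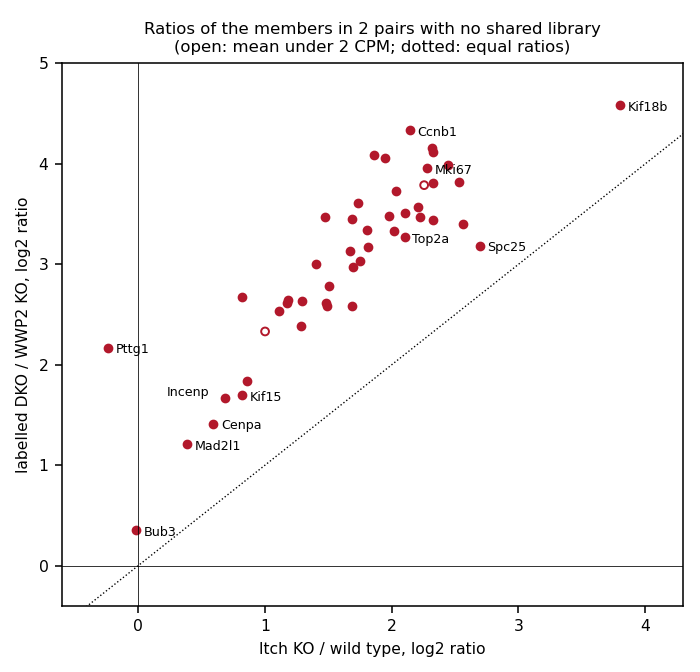
Log2 ratio of each member in Itch KO against wild type (horizontal) and in the library labelled DKO against WWP2 KO (vertical), 2 pairs with no shared library; open circles are Cdc25c and Cenph, below 2 CPM, and the dotted line marks equal ratios. All points lie above the line, from Bub3 near the origin to Kif18b at 3.80 and 4.58, with Pttg1 set apart at -0.24 and 2.17.

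Other mitotic genes, 66 symbols outside the 48, were less uniform, though members and lists were chosen with earlier results of these data known. For this and the lists below, 12.3% of all genes tested were called higher and 6.34% lower in the library labelled DKO against wild type. The shares were 4.89% and 0.846% in Itch KO, and 0.282% and 0.161% in WWP2 KO. Of the 56 tested, 42 were called higher in the library labelled DKO against wild type and 0 lower, with a median log2 ratio of 2.25. In Itch KO 28 were called higher and 0 lower, with a median of 1.0, and in WWP2 KO 0 were called, with a median of -0.03. The highest ratios were those of Depdc1a (4.86) and Fam64a (4.46), with 215 and 115 reads in the library labelled DKO against 5 and 3 in wild type. The lowest were Wee1, the CDK1 inhibitor, at -0.29, and Ckap5, a microtubule polymerase, at -0.14, neither called.

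Subunits of the anaphase-promoting complex and of cohesin, parts of mitosis that cells also keep outside it, were close to level. Of 22, 1 was called in the library labelled DKO against wild type, Anapc11 at 1.03, just past the threshold, and 0 in Itch KO, with medians of 0.00 and -0.03. The lowest were Cdc16 at -0.57 and Cdc23 at -0.48, and Anapc13 stood at 0.48.

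DNA replication genes act in the phase before mitosis. Of 39 tested, 14 were called higher in the library labelled DKO against wild type and 1 lower, median 0.47. In Itch KO 5 were called higher and 0 lower, median 0.10, and in WWP2 KO 0, median -0.05. Mcm10 (3.66) and Rrm2 (3.45) led, and Ung, the uracil glycosylase gene, was lower at -1.67, with 325 reads in the library labelled DKO against 970 in wild type. Pold1 stood at -0.80. The difference between the mitotic and the replication genes was not tested.

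Regulators upstream were counted in the same way. Among 21 genes of the E2F family, B-Myb, NF-Y and the DREAM or MuvB complex, 5 were called higher in the library labelled DKO against wild type and 4 in Itch KO, with 0 lower in both and medians of 0.24 and 0.12. E2f2 (4.08) and E2f8 (3.65) led, and E2f5 (-0.89) and Lin52 (-0.42) were lowest. In WWP2 KO 1 was called, Rbl2 at 1.16, named after its value was seen. Among 11 tested G1 cyclins, kinases and inhibitors, 2 were called higher in the library labelled DKO and 1 lower, median 0.30, which is close to the 12.3% and 6.34% of all genes tested. Cdkn2c (3.20), an inhibitor of CDK4 and CDK6, and Ccne1 (2.62), the cyclin of entry into S phase, were the higher ones. Cdk4 was the lower one at -1.37, with 1864 reads in the library labelled DKO against 4499 in wild type, and Ccnd2 stood at -0.97.

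**Figure D5:**
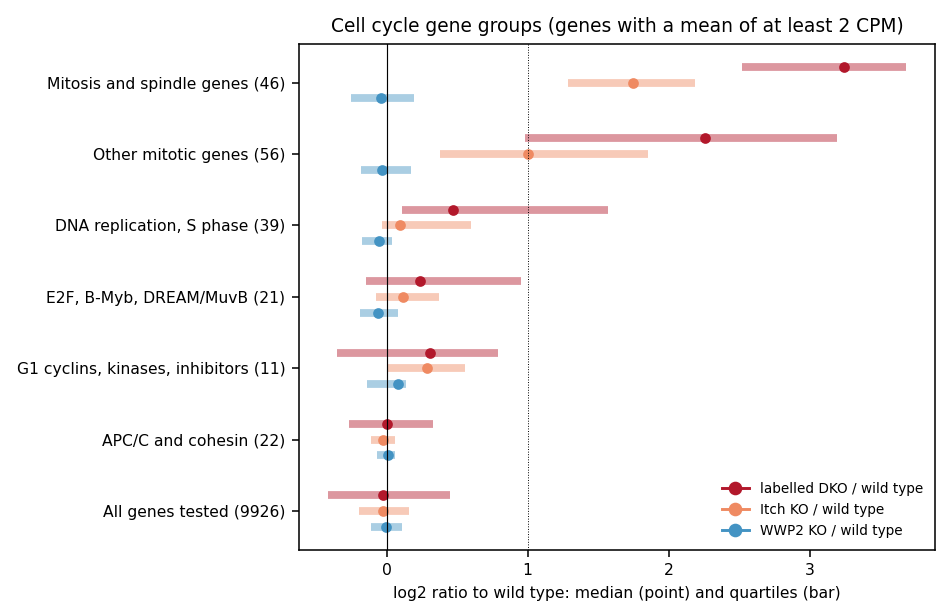
Median (point) and quartiles (bar) of log2 ratios to wild type in 6 gene groups and over all 9926 genes tested, in the library labelled DKO (red), Itch KO (orange) and WWP2 KO (blue); numbers in brackets are genes with a mean of at least 2 CPM. The mitosis and spindle genes have the rightmost red and orange points, at 3.24 and 1.74, and the anaphase-promoting complex and cohesin lie at 0 with all genes.

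Cells of other types that could divide were looked for by their markers. All 8 CD4 T cell markers were present, at a summed 2020 CPM in the library labelled DKO, 1823 in Itch KO and 1886 in WWP2 KO, against 1971 in wild type. Single markers differed: Cd4 had 9441 reads in the library labelled DKO, 4262 in Itch KO and 2901 in WWP2 KO, against 4069 in wild type, and Cd3g had 3100, 1505, 1056 and 1319 in that order. Cd5 ran the other way with 5484, 10798, 11863 and 12091 reads. Among 10 erythroid markers, the globin genes Hba-a1, Hba-a2, Hbb-b1 and Hbb-b2 and the carbonic anhydrase gene Car1 had 0 reads everywhere. The list's sum was 4.09, 2.94, 5.19 and 4.21 CPM in the same order, mostly Gata1 with 66, 48, 85 and 68 reads. Alas2 had 7, 1, 4 and 3 reads, Klf1 2, 0, 0 and 0, and Epor 1, 2, 0 and 2. The 7 B cell markers, each under 2 CPM on average over the 4 libraries, summed to 1.61, 3.98, 2.57 and 3.52 CPM, with Pax5 at 0 everywhere, and the 9 myeloid markers in the table to 2.53, 1.33, 0.7 and 1.15 CPM, with S100a8 and Elane at 0. Of 5 germinal centre B and plasma cell markers 3 reached 2 CPM, the sum being 2131, 4188, 4011 and 4005 CPM, mostly Irf4, which activated T cells also make.

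The remaining lists moved in different ways. The 5 dendritic cell markers summed to 23.2, 15.7, 5.37 and 8.13 CPM, with Xcr1 at 322, 113, 48 and 54 reads, and with Flt3 and Siglech at 0 in the library labelled DKO. Zbtb46, of this list, had 71, 106, 40 and 64 reads. The 5 natural killer cell markers summed to 21.1, 40.9, 12.7 and 16.8 CPM, with Klra8 at 0 everywhere, and both CD8 markers to 7.05, 15.9, 6.53 and 7.44 CPM. Both sums were highest in Itch KO. Eomes made most of the natural killer sum there, with 124, 498, 133 and 162 reads in the same order. Nkg7 had 254, 173, 28 and 41 reads and Klrb1c, of the same list, 12, 37, 57 and 88. The 6 mast cell and basophil markers summed to 5.38, 10.9, 28.9 and 24.9 CPM, mostly Kit, with Fcer1a and Ms4a2 at 0. Kit ran opposite to the mitotic genes, at 85, 188, 493 and 429 reads. Mcpt8 (12, 0, 2 and 0 reads), Prss34 (2, 0, 0 and 0) and Cpa3 (1, 1, 0 and 2) did not. The 5 stromal markers summed to 76.9, 61.9, 77.5 and 75.1 CPM, mostly Pecam1. Within lists, reads of the collagen gene Col1a1 numbered 209, 21, 3 and 1, of the plasma cell gene Sdc1 172, 27, 13 and 7, and of the myeloid gene Mpo 21, 5, 1 and 0. Xbp1, listed with Sdc1, fell in the same order at 4944, 2674, 2488 and 2293 reads. Other genes of these lists did not. Igj had 18, 36, 20 and 9 reads, Irf4 34474, 69910, 66244 and 67135, the myeloid Itgam 12, 13, 9 and 16, and Pecam1 1215, 1049, 1322 and 1299. The collagen gene Col3a1 had 1, 0, 0 and 0. The part of these markers in the mitotic counts was not tested.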

How the data were processed

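The authors deposited 1 table of raw counts, reads per gene symbol with no normalization, for 21937 symbols in 4 libraries. Per the submitters' processing notes, the tools were HTSeq 0.7.1, TopHat 1.4.1 and Bowtie 1.0.0, on mouse build mm9. No source used here gives the annotation or strand setting, so overlapping or antisense genes could share reads. TMM factors (trimmed mean of M values) were computed with edgeR 4.0.16 in R 4.3.3, and alternative size factors with DESeq2 1.42.0. Other work used Python 3.11.15, scipy 1.17.1 and matplotlib 3.10.9. Folds carry no prior count and have exact conditional binomial 95% intervals. Log2 ratios carry a prior count of 2 and are drawn towards 0 for low counts. With 1 library per genotype no test between groups was made, and the calls are a size rule. The reads carry no molecular identifiers that the labels name, so they need not be independent molecules.

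The members and lists were chosen with earlier results of these data known. Every member was counted. Reads in all 4 libraries are given, by rule, for the 2 highest and the lowest log2 ratio per role in the library labelled DKO against wild type, for Mki67, Top2a and Pttg1 and for members called in WWP2 KO. Each list shows its 2 highest and 2 lowest ratios. Other members with values were added after these were seen. Promoters and neighbouring genes came from RefSeq tables of GRCm38.p6, another build than the counts, and 99.0% of symbols matched by name or synonym. Single values of some marker genes are not reported here.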

Additional observations from a re-analysis of the deposited data

Results flagged for a closer look

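In 2 pairs that differ by the WWP2 label, WWP2 KO against wild type and the DKO-labelled library against Itch KO, 3 of the 46 members tested (6.52%) had ratios in opposite directions with both counting intervals clear of 1, where 9.18% of all genes tested did. None of these differences was tested, and the library labelled DKO held Wwp2 reads. Pttg1 had a log2 ratio of -1.73 in WWP2 KO against wild type and 0.68 in the library labelled DKO against Itch KO. Ccnb1 had -0.71 in the first pair and 1.48 in the second. Bub3 had -0.16 in the first and 0.21 in the second.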

How the results depend on the processing

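No paired analysis was possible because each genotype has 1 library, and for the same reason leaving out a replicate leaves no comparison for its genotype. Under scaling by DESeq2 size factors, upper quartiles or total counts, prior counts of 0.5 or 5 and no minimum, the counts of members called stayed within 1.5 times in all 6 comparisons of libraries. The 21 members with full values were recomputed under the 3 other scalings only, against wild type, and there each stayed on its side of the size rule and no called one turned its direction. A minimum of 10 CPM left 22 members. Of these 20 were called higher in the library labelled DKO against wild type, with 15 for Itch KO and 0 for WWP2 KO. The count was 17 in the library labelled DKO against Itch KO, 21 in it against WWP2 KO and 16 in Itch KO against WWP2 KO, and 20 had both libraries labelled Itch-deficient above both others. Fewer members were tested at this minimum, and the ratios of those left also differed somewhat. Their median log2 ratio in Itch KO against wild type was 1.59, beside 1.74 at the 2 CPM minimum. With a 3-fold threshold, 9 were called higher in the library labelled DKO against Itch KO and 0 in WWP2 KO against wild type, and with 1.5-fold 2 were called lower in that pair. Chosen after seeing the data, a fit without the library labelled DKO tested 42 members, and 34 were called higher in Itch KO against wild type, 35 in Itch KO against WWP2 KO and 0 in WWP2 KO against wild type. Itch KO was then above both WWP2 KO and wild type in 40. No share over all genes is given for the 10 CPM minimum, the other fold thresholds or this fit. The counts of members under them therefore stand without a background. Scaling by total counts alone moved the median of all genes in the library labelled DKO against Itch KO from 0.03 to 0.11. Depth limits members with under about 10 reads in WWP2 KO or wild type, whose folds have wide intervals.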
